A study of Mus musculus with 16 samples.

Results

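Pancreata with a lacZ allele at 1 of the Pdx1 loci were compared with control pancreata. The libraries were chosen by their genotype labels: 4 from Pdx1LacZ/+ embryos and 4 from control embryos, 8 of the 16 libraries of the study. All embryos were at embryonic day 15.5 and on a mixed background, and RNA came from the dissected pancreas. The study also holds 5 double heterozygous (Pdx1LacZ/+;Oc1+/-) libraries and 3 Oc1+/- libraries, where Oc1 is the protein of Onecut1; its title concerns the joint action of both factors in starting the endocrine program. The labels name the controls only as control, and headings in the deposited table call them WT. Litters and the number of pancreata per library are not given in the labels. Any p-value here thus measures spread among libraries, which may be technical. The authors' fit may have pooled all 16 libraries, so spread in the other genotypes may enter each p-value.

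Pdx1 is a homeodomain factor without which no pancreas forms. Around this stage the epithelium divides into acinar tips, which make digestive enzymes, and a trunk, from which ducts and Neurog3-expressing endocrine precursors arise. In beta cells Pdx1 activates the insulin genes and other genes of glucose sensing. Pdx1 is also made in the duodenum and distal stomach, which adjoin the pancreas.

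All values come from the authors' deposited table. Some of its headings do not match its values. Which genotype this comparison concerns depends on the reading chosen, as described with the processing. For each gene the table holds a log2 fold change, a p-value, an adjusted p and a mean log2 CPM (reads scaled to the depth of their library), the last a single value shared by all comparisons. It lists 2283 of the 22869 genes counted, and each listed gene has an adjusted p under 0.1 together with a change of at least 1.5-fold in at least 1 of 5 comparisons. Genes with an adjusted p under 0.05 and a change of 1.5-fold or more were called. Values per library, and their depths, were not analysed here, because no label ties a count column to a library. In their place an approximate standard error (SE) of a fold change was derived from its p-value.

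Upstream sequences are shown for the targeted gene (Pdx1), for the member of the beta cell list with the lowest fold change (Npy) and for a gut epithelial gene among the highest (Lgals4). Each runs from 250 bases before to 50 bases after the gene start in RefSeq on build GRCm38.p6, not the mm9 build of the study. They lie at chr5:147269847-147270146, chr6:49822460-49822759 and chr7:28833544-28833843, all on the plus strand. Capitals mark matches on either strand to TAATTG, a homeodomain core, TTTATG, a caudal-type core, or CACCTG, a form of the E-box. Other E-box forms were not searched.
Pdx1: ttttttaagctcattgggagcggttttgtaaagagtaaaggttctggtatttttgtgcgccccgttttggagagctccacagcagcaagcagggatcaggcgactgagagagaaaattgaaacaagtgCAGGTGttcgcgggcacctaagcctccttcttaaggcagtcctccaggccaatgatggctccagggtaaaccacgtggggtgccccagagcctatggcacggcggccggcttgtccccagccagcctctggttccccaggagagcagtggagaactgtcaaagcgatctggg
Npy: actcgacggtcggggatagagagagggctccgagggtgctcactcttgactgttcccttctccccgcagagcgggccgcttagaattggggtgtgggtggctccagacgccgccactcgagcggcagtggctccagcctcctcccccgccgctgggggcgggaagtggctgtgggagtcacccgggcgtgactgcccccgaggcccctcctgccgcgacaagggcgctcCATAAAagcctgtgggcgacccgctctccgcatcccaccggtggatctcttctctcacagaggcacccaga
Lgals4: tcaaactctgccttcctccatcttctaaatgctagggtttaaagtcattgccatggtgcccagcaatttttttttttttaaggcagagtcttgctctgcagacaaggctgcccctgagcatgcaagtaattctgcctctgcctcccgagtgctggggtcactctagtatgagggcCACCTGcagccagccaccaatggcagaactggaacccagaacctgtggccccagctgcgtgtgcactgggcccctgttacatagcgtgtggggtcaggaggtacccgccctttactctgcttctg
The homeodomain core is in none of the 3 windows. Pdx1 and Lgals4 each hold 1 match to CACCTG and Npy holds 1 to the caudal-type core. Of the 47 genes called higher 30 had such a window, and 2 of the 30 held the homeodomain core (6.67%, against 8.15% of the windows of 27025 genes). The caudal-type core was in 4 of the 30 (13.3%, against 12.1%) and CACCTG in 7 (23.3%, against 20.03%). Of the 10 genes called lower 7 had a window. Of these, 0 held the homeodomain core, 3 the caudal-type core and 3 CACCTG (42.9% each for the last 2 motifs). The motifs were searched separately, so matches may share bases. These counts describe letters in a window and show no binding.

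Pdx1 transcript was lower in the Pdx1 heterozygotes. It fell in the authors' deposited table by 0.47 on a log2 scale (approximate SE 0.10, adjusted p = 0.00427). This is 1.39-fold, with an approximate 95% interval of 1.21-fold to 1.60-fold, and thus under the 1.5-fold minimum. Onecut1, the partner gene, stood in the authors' deposited table at 0.42 (approximate SE 0.21, adjusted p = 0.828). Whether reads from the lacZ allele can count for Pdx1 is not given in the sources used here. Of the 10 counted genes on each side of Pdx1 in the gene order of GRCm38, 19 of 20 were not listed, among them Cdx2, Flt3 and Flt1. Over all genes 20586 of 22869 were not listed. The homeobox gene Gsx1 was the listed neighbour, at 3.64 in the authors' deposited table (adjusted p = 0.478).

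In all, 57 of 22869 genes were called (0.249%), 47 of them higher (0.206%) and 10 lower (0.0437%) in Pdx1 heterozygous than in control pancreata. Log2 fold changes of the genes called higher ran in the authors' deposited table from 0.60 to 11.01, with a median of 1.11, and 19 of the 47 were under 1. Those called lower ran in the authors' deposited table from -3.78 to -0.62, with a median of -1.18. Over the 2283 listed genes the median was 0.10, with 1351 above 0 and 932 below. By edgeR as the authors ran it, 364 of the 2283 were higher (15.9%) and 216 lower (9.46%) with an unadjusted p under 0.05. Counts of list members at that p are to be read beside these shares. Counts of called members are to be read beside the 0.206% higher and 0.0437% lower over all genes. Listed members of a list are those that reached both limits in some comparison, so their counts and medians describe these members only. Several of these comparisons hold the Pdx1 heterozygotes, so the listing itself favours genes that differ in them. The ranks behind the adjusted p-values show that 72 genes had an adjusted p under 0.05. Of these, 57 were called, 7 were listed with a change under 1.5-fold and 8 were not listed. The 7 were Pdx1, Kcnj11, Arhgef26, Serpina10 and Rbp4, which were lower, and Mpzl2 and Wdr86, which were higher. At the edge of the call, the authors' deposited table has Rdh10 as the last gene inside (adjusted p = 0.0493) and Atoh1 just outside (adjusted p = 0.0503).

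**Figure D1:**
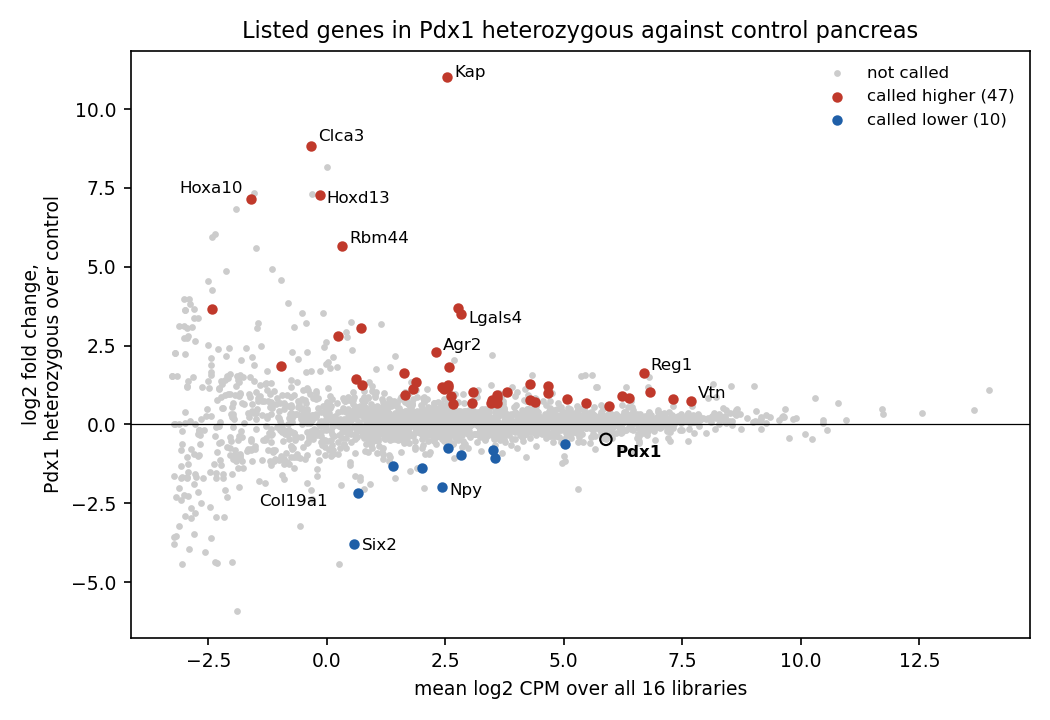
Log2 fold change of each listed gene in Pdx1 heterozygous over control pancreata (vertical axis) against its mean log2 CPM (horizontal axis), with genes called higher in red, called lower in blue and Pdx1 circled. Of the 57 called genes 47 lie above 0, and every point above 5 on the vertical axis has a mean log2 CPM of 2.53 or less.

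The 10 genes called lower include receptors, secreted proteins and a retinoid enzyme. Npy, a neuropeptide gene that embryonic beta cells express, fell in the authors' deposited table by 1.996 (approximate SE 0.37, adjusted p = 0.000278), which is 3.99-fold with an approximate 95% interval of 2.40-fold to 6.62-fold. Col19a1, a collagen gene, and Six2, a homeobox gene of kidney progenitors, stood in the authors' deposited table at -2.17 and -3.78 (adjusted p = 0.000285 and 0.0291), with a mean log2 CPM of only 0.66 and 0.58. The delta opioid receptor gene Oprd1 fell in the authors' deposited table by 1.37 (approximate SE 0.25, adjusted p = 0.000141). O3far1, which encodes a receptor for long-chain fatty acids, fell in the authors' deposited table by 0.76 (adjusted p = 0.0464). Nepn, which encodes the secreted protein nephrocan, and Tmem171, a membrane protein gene, fell in the authors' deposited table by 1.31 and 1.05 (approximate SE 0.28 and 0.20, adjusted p = 0.00291 and 0.000533). The cadherin gene Cdh8 and the transglutaminase gene Tgm7 fell in the authors' deposited table by 0.96 and 0.80 (adjusted p = 0.0106 and 0.0291). Rdh10, which oxidises retinol on the way to retinoic acid, fell in the authors' deposited table by 0.62.

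These genes did not all stand alike in the other genotypes, which were set against the same 4 control libraries. Npy stood in the authors' deposited table at -1.996 in the Pdx1, at -2.004 in the double and at 0.79 in the Oc1 heterozygotes. The direct contrast of Pdx1 with Oc1 heterozygotes gave -2.79 for Npy and -3.29 for Col19a1, both from the authors' deposited table (adjusted p = 1.01e-09 and 1.3e-11). Oprd1 was low in all 3: the authors' deposited table has -1.37 in the Pdx1, -1.43 in the double and -1.57 in the Oc1 heterozygotes. Its difference between Pdx1 and Oc1 heterozygotes was 0.20 by the authors' deposited table (adjusted p = 0.816). Nepn, Tmem171 and Tgm7 were also below 0 in all 3. They stood at -1.93, -1.29 and -1.19 in the double and at -1.29, -0.56 and -1.57 in the Oc1 heterozygotes. Cdh8 and O3far1 stood at -0.25 and -1.16 in the double and at -0.78 and -0.18 in the Oc1 heterozygotes. Six2 and Rdh10 were lower in Pdx1 than in double heterozygotes, by direct contrasts of -5.76 and -0.68 from the authors' deposited table (adjusted p = 9.03e-06 and 0.00321).

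The beta cell list holds 31 genes, all counted, of which 22 were listed and 2 were called, 1 in each direction, beside 0.249% of all genes. An adjusted p under 0.05, whatever the size of the change, was reached by 1 higher and 3 lower members, Pdx1 itself among the 3. Npy was called lower, and Slc2a2, the glucose transporter gene of beta cells, was called higher, with a value in the authors' deposited table of 0.70 (approximate SE 0.18, adjusted p = 0.0321). Kcnj11, the pore subunit of the ATP-sensitive potassium channel, fell in the authors' deposited table by 0.56 (approximate SE 0.11, adjusted p = 0.000533), which is 1.47-fold. The insulin genes Ins1 and Ins2 did not pass, and stood in the authors' deposited table at -0.50 and -0.52 (adjusted p = 0.763 and 0.527). Iapp, which encodes the amyloid peptide released with insulin, and Mafa, an insulin gene activator, stood in the authors' deposited table at -0.60 and -0.67 (adjusted p = 0.292 and 0.648). The approximate 95% interval ran from -0.91 to -0.12 for Ins2 and from -1.01 to -0.20 for Iapp. Of the 22 listed members 16 were below 0 and 6 above, with a median of -0.29 beside 0.10 over all listed genes. At an unadjusted p under 0.05 the counts were 2 higher and 9 lower, beside 15.9% and 9.46% of all listed genes. The factor genes Nkx6-1 and Nkx2-2 were among the 9 members not listed. Fewer cells of a type and less RNA per cell cannot be told apart in bulk tissue.

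Among the other islet hormones only Ghrl, the ghrelin gene of epsilon cells, was called; it rose in the authors' deposited table by 0.68 (approximate SE 0.17, adjusted p = 0.0226). The somatostatin gene Sst, the pancreatic polypeptide gene Ppy, the peptide YY gene Pyy and the glucagon gene Gcg stood in the authors' deposited table at 0.14, 0.53, -0.05 and -0.29 (adjusted p = 1, 0.584, 1 and 1). Of 12 delta, PP and epsilon cell genes 8 were listed. Called were 1 higher and 0 lower, beside 0.206% and 0.0437% of all genes. At an unadjusted p under 0.05 there were 2 in each direction by edgeR as the authors ran it. Rbp4, a retinol carrier gene, fell in the authors' deposited table by 0.43 (adjusted p = 0.0446). None of 13 alpha cell genes was called (5 listed; at an unadjusted p under 0.05, 2 higher and 0 lower). None of 25 endocrine progenitor genes was called either (10 listed; 0 higher and 2 lower at that p). Neurog3, which starts endocrine commitment, and its target Neurod1 stood in the authors' deposited table at -0.32 and 0.18 (adjusted p = 0.853 and 1). Of 26 genes of the secretory granule and of prohormone processing 11 were listed. Rab27b, a GTPase of granule traffic, rose in the authors' deposited table by 0.81 (adjusted p = 0.0366). Chga, Chgb, Pcsk1 and Pcsk2 lay in the authors' deposited table between -0.16 and 0.26.

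**Figure D2:**
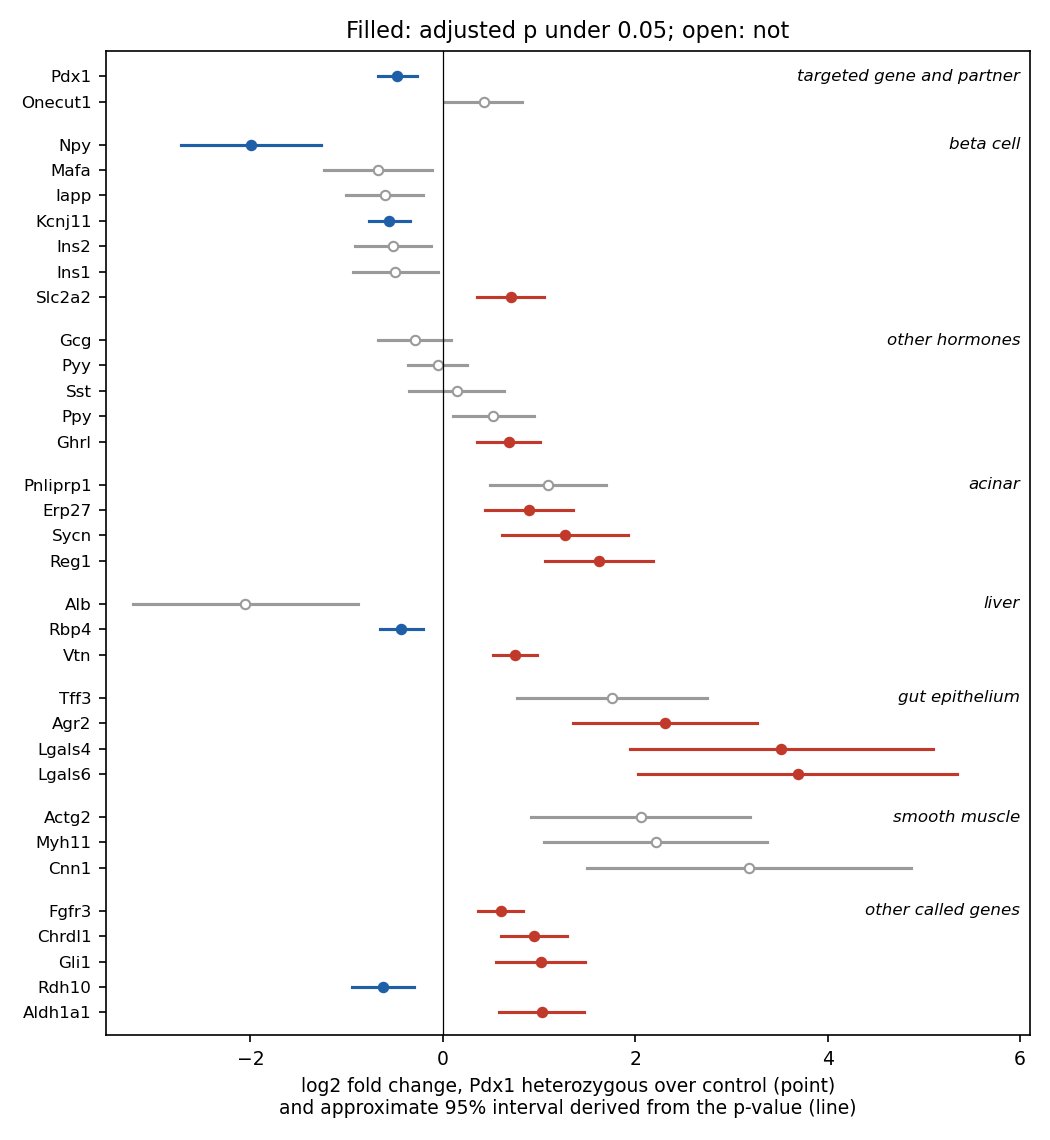
Log2 fold change in Pdx1 heterozygous over control pancreata (point) with the approximate 95% interval derived from the p-value (line), for genes in groups; filled points have an adjusted p under 0.05. The intervals of Lgals4, Lgals6 and Cnn1 are several times wider than those of Pdx1, Kcnj11 and Fgfr3.

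Of the acinar genes 3 were called, all higher, beside 0.206% of all genes called higher. Reg1, which encodes a secreted acinar lectin, rose in the authors' deposited table by 1.62 (approximate SE 0.28, adjusted p = 9.56e-05), or 3.08-fold with an approximate 95% interval of 2.09-fold to 4.53-fold. Sycn, a zymogen granule protein gene, and Erp27, an endoplasmic reticulum protein gene, rose in the authors' deposited table by 1.27 and 0.90 (approximate SE 0.33 and 0.23, adjusted p = 0.0446 for both). Of 49 genes for digestive enzymes and granule proteins 48 were counted and 42 listed. Of these, 41 were above 0 and Pnliprp2 was below, with a median of 0.88. At an unadjusted p under 0.05 there were 21 higher and 1 lower of the 42, beside 15.9% and 9.46% of all listed genes. Against the same controls the 42 had a median of 2.19 in the Oc1 and 0.44 in the double heterozygotes. Pnliprp1, a lipase-related gene with the highest mean log2 CPM of all listed genes, stood in the authors' deposited table at 1.09 (adjusted p = 0.0815). The trypsinogen gene Prss2 and the amylase gene Amy2b stood in the authors' deposited table at 1.19 and 1.23 (adjusted p = 0.139 and 0.352). Trypsinogen and amylase genes have near-identical copies between which reads may be split, so their single values are uncertain. The carboxypeptidase gene Cpa1 and the elastase gene Cela1 stood in the authors' deposited table at 0.36 and 0.25 (adjusted p = 1 for both).

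Regulators of acinar genes were not called. Of 11 acinar transcription factor genes 6 were listed, with 0 called; edgeR as the authors ran it had 1 higher and 0 lower by an unadjusted p under 0.05. Ptf1a and Rbpjl, which together activate the enzyme genes, stood in the authors' deposited table at 0.01 and 0.46 (adjusted p = 1 and 0.905). Of 21 chaperone and stress genes of the endoplasmic reticulum 14 were listed, all between 0.03 and 0.43, with 0 called and 3 higher and 0 lower at that unadjusted p. Among 29 genes of progenitors, trunk and ducts 28 were counted and 7 listed. Cys1, a gene of the primary cilium, rose in the authors' deposited table by 0.68 (approximate SE 0.15, adjusted p = 0.00476). Sox9, Foxa2 and Prox1 were among the 21 counted members not listed. Of 27 genes taken as reported targets of Pdx1, 20 were listed. Slc2a2 and Reg1 were called higher and 0 lower, while Pdx1 and Kcnj11 passed the adjusted p with a decrease under 1.5-fold. By the unadjusted p, edgeR as the authors ran it had 3 higher and 8 lower of the 20, beside 15.9% and 9.46% of all listed genes.

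Genes of gut epithelium were among the highest. Lgals4 and Lgals6, which encode intestinal galectins, rose in the authors' deposited table by 3.52 and 3.69 (adjusted p = 0.00936 and 0.00964), or 11.5-fold and 12.9-fold. They are near-identical copies, so their counts may share reads and are no separate observations. Agr2, a disulphide isomerase gene of mucous cells, rose in the authors' deposited table by 2.31 (approximate SE 0.49, adjusted p = 0.00315). Of 38 stomach and intestine genes 37 were counted and 24 listed. Called were 3 higher and 0 lower, beside 0.206% and 0.0437% of all genes. Of the 24, edgeR as the authors ran it had 13 higher and 3 lower by an unadjusted p under 0.05. These counts stand beside 15.9% and 9.46% of all listed genes. Krt20 and Tff3, a keratin gene and a trefoil peptide gene of intestinal cells, stood in the authors' deposited table at 1.33 and 1.76 (adjusted p = 0.0601 and 0.0968). Cdx1, an intestinal homeobox gene, Muc13, a mucin gene, and Lct, the lactase gene, stood in the authors' deposited table at 3.21, 3.53 and 2.07 (adjusted p = 0.152, 0.221 and 0.226). The stomach genes Gkn2 and Gkn3 stood in the authors' deposited table at -3.596 and 0.24 (adjusted p = 0.668 and 1). Cdx2, Fabp1, Fabp2, Sis, Gkn1 and Muc5ac were not listed.

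Other genes known from gut epithelium and gut wall were picked out after their values were seen. S100a14, a calcium-binding protein gene, and the fucosyltransferase gene Fut2 rose in the authors' deposited table by 2.82 and 3.05 (adjusted p = 0.0106 and 0.0102). The tetraspanin gene Tspan8 and the goblet cell gene Clca3 rose in the authors' deposited table, to values of 1.62 and 8.84 (adjusted p = 0.0230 and 0.0106). For Clca3 the fitted level was the same in Oc1 heterozygous and control pancreata (within 1e-06) and the mean log2 CPM was -0.34, so its fold change is no measure of size. Cdh17, an intestinal cadherin gene, and Atoh1, which specifies secretory gut cells, stood in the authors' deposited table at 2.35 and 6.82 (adjusted p = 0.0795 and 0.0503). Foxf2, a factor gene of gut mesenchyme, and Ihh, a hedgehog ligand gene of gut epithelium, stood in the authors' deposited table at 3.09 and 3.52 (adjusted p = 0.0625 and 0.155). Gli1, which is transcribed in response to hedgehog signals, rose in the authors' deposited table by 1.02 (approximate SE 0.24, adjusted p = 0.0102). Against the same controls Gli1 and Ihh stood at 0.89 and -0.30 in the double and at -0.16 and -0.46 in the Oc1 heterozygotes. Shh, Ptch1 and Hhip were not listed.

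Listed smooth muscle genes had positive values but none was called. Of 11 such genes 8 were listed, and by edgeR as the authors ran it all 8 were above 0 with an unadjusted p under 0.05, beside 15.9% of all listed genes higher at that p. Their median was 1.40. None of the 8 reached the listing limits in Oc1 or double heterozygotes against control. Each was listed only through comparisons that hold the Pdx1 heterozygotes. The count of 8 and the median are thus partly set by this selection. Cnn1, Myh11 and Actg2, contractile genes of visceral muscle, stood in the authors' deposited table at 3.18, 2.21 and 2.05 (adjusted p = 0.0601, 0.0553 and 0.0885).

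Posterior Hox genes, which pattern the hindgut and posterior trunk, also had high values; this list was drawn up after values were seen. Of 16 genes of the posterior groups 8 were listed, all above 0. Each of the 8 was listed only through comparisons that hold the Pdx1 heterozygotes, so their shared direction is partly set by this selection. Hoxa10 and Hoxd13 were called higher, beside 0.206% of all genes. For Hoxa10 and Hoxd13 the authors' deposited table has 7.15 and 7.26 (adjusted p = 0.0178 and 0.0479). Hoxb13, Hoxd12 and Hoxa13 stood in the authors' deposited table at 7.32, 7.35 and 5.94 (adjusted p = 0.0656, 0.0793 and 0.304). The mean log2 CPM of these 5 was under 0. The 8 listed Hox genes of the more anterior groups lay between -0.47 and 0.54. Several of these were listed through Oc1 heterozygotes against control, so the posterior and anterior groups were not selected alike. For Atoh1, Hoxd12 and Hoxa13 the fitted level was the same in double heterozygous, Oc1 heterozygous and control pancreata (within 1e-06), and for Hoxd13 and Hoxb13 it was the same in double and Oc1 heterozygotes. Whether these groups held any read was not analysed here. A fitted fold change against a group at or near 0 depends on the constant added to the counts and is no measure of size.

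Several of these genes were also set against the other mutants. Lgals4 had 3.52 in the Pdx1, 0.20 in the double and 0.07 in the Oc1 heterozygotes by the authors' deposited table, against the same controls. Direct contrasts of Pdx1 with double heterozygotes passed for Lgals4 (3.32, adjusted p = 0.00140), Fut2 (2.89, adjusted p = 0.00176), Myh11 (1.91, adjusted p = 0.0362) and Hoxd13 (9.05, adjusted p = 0.000606), all from the authors' deposited table. The same contrast did not pass for Actg2 (1.40, adjusted p = 0.248), Tspan8 (1.11, adjusted p = 0.116), Krt20 (0.88, adjusted p = 0.231) or Foxf2 (2.03, adjusted p = 0.192). Agr2 differed from the genes that passed: the authors' deposited table has 2.31 in the Pdx1, 1.66 in the double and 2.71 in the Oc1 heterozygotes. Neither direct contrast of the Pdx1 heterozygotes passed for Agr2 (0.65 and -0.41 from the authors' deposited table, adjusted p = 0.857 and 0.751).

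**Figure D3:**
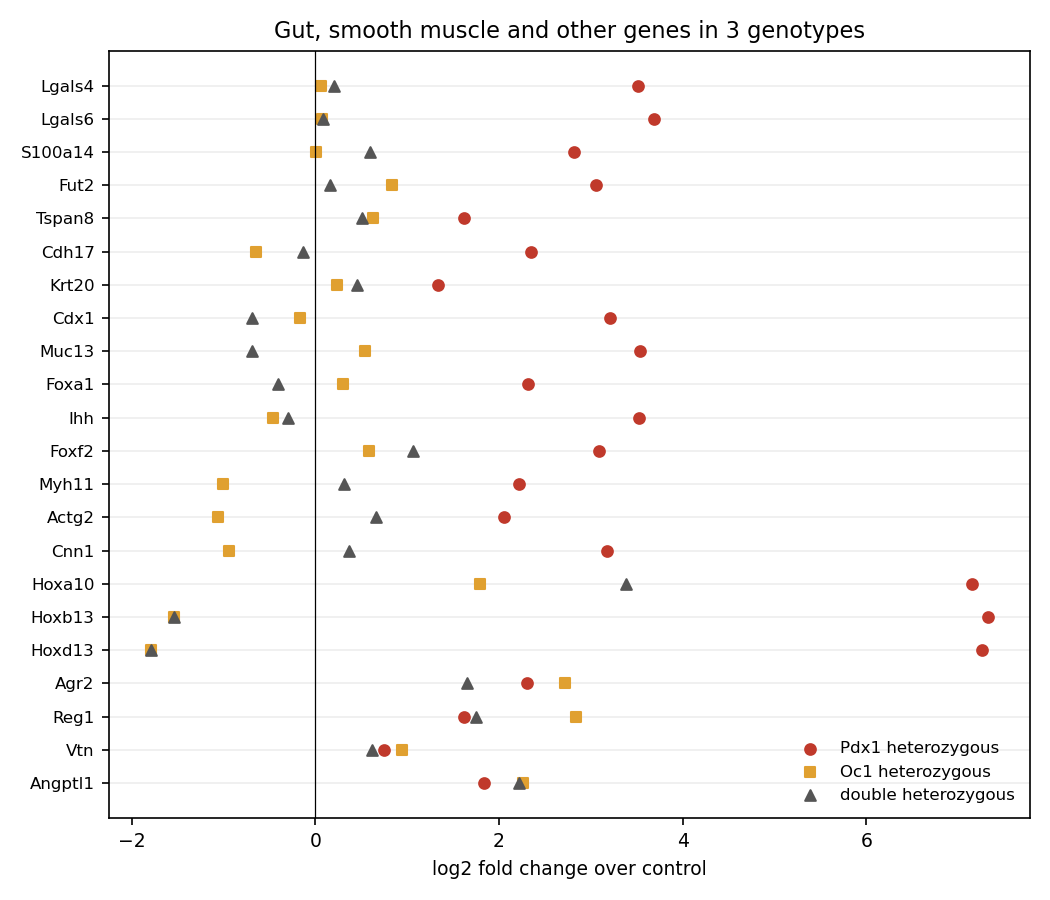
Log2 fold change over the same 4 control libraries in Pdx1 heterozygous (circles), Oc1 heterozygous (squares) and double heterozygous (triangles) pancreata for genes of gut epithelium, gut muscle, posterior Hox and other groups. Lgals4 and Lgals6 lie above 3 in the Pdx1 heterozygotes and near 0 in the others, while Agr2, Reg1, Vtn and Angptl1 lie above 0 in all 3.

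Errors were wide for many, not all, listed genes of gut, muscle and liver. Among members with a mean log2 CPM of 1 or more, 10 of 15 stomach and intestine, 4 of 6 smooth muscle and 5 of 10 liver genes had an approximate SE above the 90th percentile of listed genes of their level. The liver genes Vtn and Rbp4 were under the median of their level. The approximate SE was 0.80 for Lgals4 and 0.84 for Lgals6, where the 295 listed genes with a mean log2 CPM of 2 to 3 had a median of 0.22 and a 90th percentile of 0.31. Myh11 had 0.59, where the 235 listed genes at 3 to 4 had a median of 0.19 and a 90th percentile of 0.29. Alb, the albumin gene, had 0.60, where the 446 listed genes at 4 to 6 had a median of 0.14. Pdx1 (0.10), Kcnj11 (0.11) and Fgfr3 (0.12), of that same level, were under this median. Which libraries were high or low was not analysed here, and spread in the other genotypes may enter these errors. The part that adjoining gut, muscle or liver had in these values was not tested.

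Liver genes were mostly below 0. Of 24 liver genes 14 were listed, 11 of them below 0, with a median of -0.72. Vtn, which encodes the adhesion protein vitronectin, was the member called, and it was higher, at 0.75 in the authors' deposited table (approximate SE 0.12, adjusted p = 4.05e-06, the smallest of this comparison). Alb and the fibrinogen genes Fga and Fgg stood in the authors' deposited table at -2.05, -1.88 and -1.91 (adjusted p = 0.107, 0.271 and 0.272). At an unadjusted p under 0.05 there were 2 higher and 9 lower of the 14, beside 15.9% and 9.46% of all listed genes. Against the same controls the 14 had a median of -0.66 in the Oc1 and -1.03 in the double heterozygotes. Afp, Ttr and Apoa2 were not listed. Of 6 genes of the spleen anlage, a mesenchyme beside the dorsal pancreas, 5 were listed, all below 0 with an unadjusted p under 0.05 by edgeR as the authors ran it, and 0 were called. The homeobox genes Nkx2-5 and Tlx1 stood in the authors' deposited table at -2.05 and -0.65 (adjusted p = 0.173 and 0.794). The 5 listed spleen anlage genes had a median of -0.90 in the Oc1 and 0.37 in the double heterozygotes.

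No gene was called in the lists for endothelium (15 counted), neural crest and neurons (21), erythroid cells (16), leukocytes (20), mesothelium (9), mesenchyme (22) or adrenal and gonad (13). At an unadjusted p under 0.05 by edgeR as the authors ran it, there were 3 lower neural, 4 lower mesenchyme, 1 lower mesothelium and 2 higher adrenal and gonad genes, and 0 in the other 3 lists among listed genes. Of 17 hypoxia and 23 Notch pathway genes 3 each were listed, with 0 called and 0 at that unadjusted p. The 22 cell cycle and 22 immediate early genes were counted and none of them was listed. The acinar genes Pnliprp1, Ctrb1 and Cpa1 had in the authors' deposited table a mean log2 CPM of 13.97, 13.65 and 12.55.

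**Figure D4:**
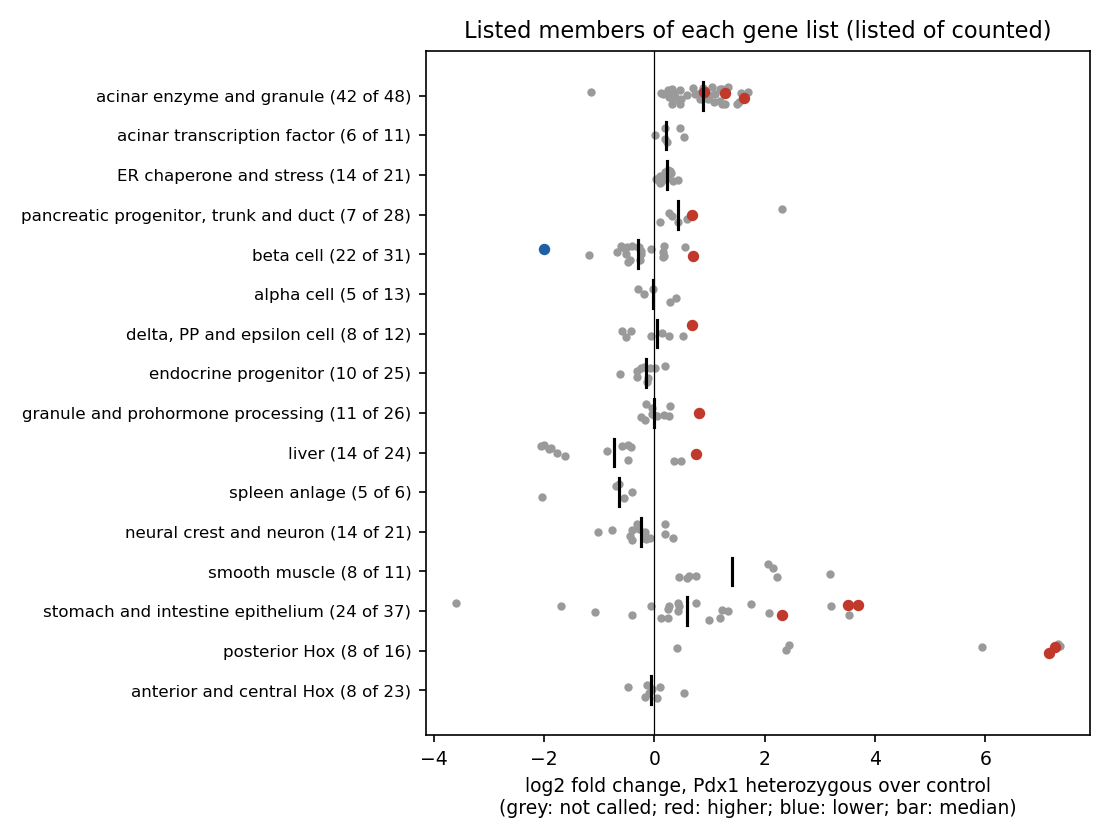
Log2 fold change in Pdx1 heterozygous over control pancreata of the listed members of 16 gene lists, with grey points not called, red called higher, blue called lower and the median as a black bar; the numbers give listed and counted members. No median is drawn for posterior Hox, whose fold changes are no measure of size. Acinar enzyme and smooth muscle medians lie above 0, at 0.88 and 1.40, and liver and spleen anlage medians below 0, at -0.72 and -0.65. Smooth muscle and posterior Hox members were listed only through comparisons that hold the Pdx1 heterozygotes.

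Further called genes lay outside the cell type lists. Fgfr3, a fibroblast growth factor receptor gene, rose in the authors' deposited table by 0.60 (approximate SE 0.12, adjusted p = 0.000961). Chrdl1 and Sostdc1, which encode antagonists of bone morphogenetic proteins, rose in the authors' deposited table by 0.95 and 1.23 (adjusted p = 0.000191 and 0.0404). Angptl1, an angiopoietin-like gene, rose in the authors' deposited table by 1.83 (approximate SE 0.42, adjusted p = 0.0102). Aldh1a1, which makes retinoic acid, rose in the authors' deposited table by 1.03 (approximate SE 0.22, adjusted p = 0.00540), while Rdh10, which acts before it, fell. Angptl1 and Aldh1a1 stood, against the same controls, at 2.22 and 1.17 in the double and at 2.26 and 1.52 in the Oc1 heterozygotes. Sostdc1 also had larger values in these genotypes than in the Pdx1 heterozygotes. The rise of Angptl1, Aldh1a1 and Sostdc1 was thus not particular to the Pdx1 heterozygotes. Fgfr3 and Chrdl1 stood at 0.34 and 0.89 in the double and at 0.15 and -0.49 in the Oc1 heterozygotes. Tmem45a, a membrane protein gene, rose in the authors' deposited table by 1.04 (approximate SE 0.18, adjusted p = 6.76e-05). For Tmem45a the direct contrasts of Pdx1 with double and with Oc1 heterozygotes came in the authors' deposited table to 0.88 and 1.41 (adjusted p = 7.55e-05 and 8.17e-10). Ces1d, a carboxylesterase gene, had 0.84 in the Pdx1, -0.36 in the double and -0.74 in the Oc1 heterozygotes by the authors' deposited table.

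Kap, the kidney androgen-regulated gene, was called higher with a very wide error, so the size of its fold change is poorly determined. It stood in the authors' deposited table at 11.01 (approximate SE 2.54, adjusted p = 0.0101) in the Pdx1, at 10.59 in the double and at 3.06 in the Oc1 heterozygotes. Of the 14 kidney genes no other was called; Nphs1 and Cdh16 stood in the authors' deposited table at 0.45 and 0.34 (adjusted p = 0.821 and 1). Rps3a, a ribosomal protein gene with processed copies, rose in the authors' deposited table by 0.80 (adjusted p = 0.0432) and is uncertain for that reason. Cfi, a complement gene, Slc5a9, a sugar transporter gene, Gda, a purine enzyme gene, and Galnt3, a mucin glycosylation gene, rose in the authors' deposited table by 0.84, 0.78, 1.34 and 1.23. Gm684, Nup62cl, Slc44a4 and P2ry14 rose in the authors' deposited table by 1.18, 0.98, 1.11 and 1.11 (adjusted p = 0.000191, 0.00235, 0.00722 and 0.0118). Mgst2, Gm609 and B4galnt2 rose in the authors' deposited table by 1.17, 0.89 and 0.92 (adjusted p = 0.0189, 0.0150 and 0.0399). Of the 57 called genes 40 fell under the rule for named genes, and the other 17, all higher, ran from 0.60 to 8.84; those of the 17 named above were chosen after their values were seen.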

How the data were processed

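Dissected pancreata were placed in Trizol and libraries made with a TruSeq RNA kit, per the labels' protocols. CASAVA 1.8.2, edgeR and build mm9 are named per the submitters' processing notes. Of the deposited count table only the 22869 gene symbols were read: its 16 count columns carry flow cell, lane and index names that no label ties to a sample, and its 0 or 1 flag was not used. Depth per library was not analysed here.

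The authors' deposited table holds, per the file headers, log2 fold changes, mean log2 CPM, p-values and adjusted p-values. In 8 of 12 rows with an empty block, later values were moved back 1 column. The block headed double against Pdx1 heterozygote equals Pdx1 minus double in 2275 of 2275 rows with values, and that headed double against Oc1 heterozygote equals Pdx1 minus Oc1 in 2279 of 2279 (tolerance 1e-06); both were used so. The headings of blocks 4 and 5 thus do not match their values when blocks 1 to 3 are read as printed. An exchange of the headings of blocks 1 and 3 would also fit this arithmetic, and would make all headings match. The median variance of blocks 2 to 5, relative to block 1, was 1.15, 0.905, 0.897 and 1.14. Group sizes predict 1.17, 0.9, 0.9 and 1.17 under the printed headings and 1.30, 1.11, 1 and 1.19 under exchanged ones. For that reason the headings of blocks 1 to 3 were kept as printed.

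Calls, fold sizes and errors were computed with pandas 2.3.3 and scipy 1.17.1. The approximate SE is the size of a log2 fold change over the normal quantile that its p-value implies, with a normal 95% interval, for genes whose mean log2 CPM was 1 or more. No model was refitted and no gene set tested. Members, thresholds and lists were chosen with earlier results of these data known. Named genes were Pdx1, Onecut1, all genes called lower, the 25 called higher with the largest change at a mean log2 CPM of 1 or more, members of 26 lists with adjusted p under 0.1, and the hormone genes. Other thresholds, Bonferroni adjustment and exchanged headings were tried.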

Additional observations from a re-analysis of the deposited data

How the results depend on the processing

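The 57 calls (47 higher, 10 lower; 13 in the gene lists) were recounted under other settings. At adjusted p under 0.1 there were 91 (73 and 18), and under 0.01 there were 25 (20 and 5; 7 in lists). A 2-fold minimum left 34 (28 and 6; 7 in lists), a mean log2 CPM of at least 4 left 15 (14 and 1; 7 in lists) and Bonferroni adjustment over all genes 13 (8 and 5; 3 in lists). Adjustment over the listed genes alone gave 192 (136 and 56; 43 in lists), an inflated count because these genes were selected for small p-values. Without a fold minimum 64 listed genes passed, and a mean log2 CPM of at least 1 left 45. With the headings of blocks 1 and 3 exchanged, an alternative added after seeing the data, the count would be 170 (43 higher, 127 lower; 51 in lists) and Pdx1 would stand at -0.61. Pdx1, at -0.47, did not pass under Bonferroni adjustment (adjusted p = 0.0812) and passed under the other adjustments. Of 56 other named genes, 21 lost the adjusted p at 0.01, 29 under Bonferroni, and 6 gained it at 0.1; none changed direction, since the fold change is the same under each of these.

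No paired analysis was possible because the result comes from the authors' fit and no count column is tied to a replicate number. Leaving out replicates, DESeq2 and other scalings were not run for the same reason. The depth behind a fold change is unknown here, and genes with a mean log2 CPM under 0 rest on few reads.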

Other observations

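Some genes outside the gene groups above had values of some size that did not pass; they were picked out after their values were seen. Ear6, Ear7 and Prg2, granule protein genes of eosinophils, stood in the authors' deposited table at -4.39, -4.36 and -3.21 in Pdx1 heterozygous against control pancreata (adjusted p = 0.0601, 0.0568 and 0.0646). Ear6 and Ear7 are closely related copies, so they are no separate observations, and all 3 genes have a mean log2 CPM under 0. Scgb1a1, a secretoglobin gene of airway epithelium, stood in the authors' deposited table at 8.18 in the Pdx1 and 8.07 in the double heterozygotes (adjusted p = 0.0898 and 0.0442), both against the same controls.

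Of 14 retinoid genes, a list drawn up after values were seen, 10 were listed. Besides Aldh1a1, Rdh10 and Rbp4, which are described above, Aldh1a7, a relative of Aldh1a1, stood in the authors' deposited table at 0.75 (adjusted p = 0.0793). Rbp2, an intestinal retinol binding protein gene, and Cyp26b1, which breaks retinoic acid down, stood in the authors' deposited table at 0.81 and -0.60 (adjusted p = 0.245 and 0.771).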
